A study of Homo sapiens with 4 samples.

Results

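The insulin signalling and FOXO genes examined here were the 9 genes FOXO1, FOXO3, FOXO4, IRS1, IRS2, INSR, PIK3R1, PIK3CA and AKT1, found by their symbols among the 13957 genes of a table made from RNA sequencing of MDA-MB-231 Fluc cells. All 9 were in the table, each in 1 row. MDA-MB-231 is a triple-negative human breast cancer cell line, and the Fluc cells carry a luciferase reporter gene. The 4 samples were 2 exposed for 2 h to 50 μM cordycepin (3′ deoxyadenosine) and 2 exposed for 2 h to DMSO, the vehicle. The table gives 1 mean expression value per gene over libraries, as log2 CPM (read counts scaled to the size of the library), and no value for a single library. The depth of each library is therefore unknown, no spread between the duplicates can be given, and no test of cordycepin against DMSO was made. What follows is the level of each gene in these cells as the authors' mean, without an error.

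Insulin and the insulin-like growth factors bind receptor tyrosine kinases, which phosphorylate docking proteins of the IRS family. These recruit phosphoinositide 3-kinase (PI3K), a lipid kinase made of a regulatory and a catalytic subunit, and its product brings the kinase AKT to the membrane. AKT phosphorylates FOXO transcription factors, which then bind 14-3-3 proteins and stay out of the nucleus. When the signal is low, FOXO factors enter the nucleus and switch on genes of cell cycle arrest, stress resistance and insulin sensitivity, among them genes of the pathway itself such as IRS2 and INSR.

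The table was first compared with what is known of this cell line. To compare genes, levels were put on a per-length scale, as the authors' mean log2 CPM less log2 of the gene length in kb (log2 CPM per kb). On this scale, 6 of 7 mesenchymal marker genes were in the table, at 7.10 to 8.65, which is percentile 97.6 and higher of all genes, and SPARC was not listed. Of 8 luminal markers, 6 were listed. KRT8 and KRT18 were at 6.33 and 6.50 log2 CPM per kb, which is percentile 95.6 and 96.1. ERBB2 was at 3.13 (percentile 62.6), GATA3 at 2.72 (55.4), EPCAM at 2.40 (49.3) and CDH1 at 1.07 (26.9). KRT8, KRT18, ERBB2 and GATA3 were thus above the median of the table, although luminal markers had been expected low or not listed. The hormone receptor genes ESR1 and PGR were not listed. None of 7 markers of other cell types (leukocytes, erythrocytes, endothelium and liver) was listed. A gene that is not listed may have been removed by a filter on low values, which is not described in the sources used here.

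The 9 genes covered a wide range of levels. The highest, AKT1, was 45.7-fold above the lowest, FOXO1, per kb of gene length and 85.5-fold above it without division by length. The median of the 9 genes was 1.54 log2 CPM per kb, compared with 2.43 for all genes in the table, and stood at percentile 34.2. Only AKT1 and IRS1 were above the median of the table on this scale. Without division by length, 5 of the 9 genes were above the median log2 CPM of the table, and the lengths of the 9 genes ran from 3790 bases (FOXO4) to 11162 bases (AKT1).

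**Figure D1:**
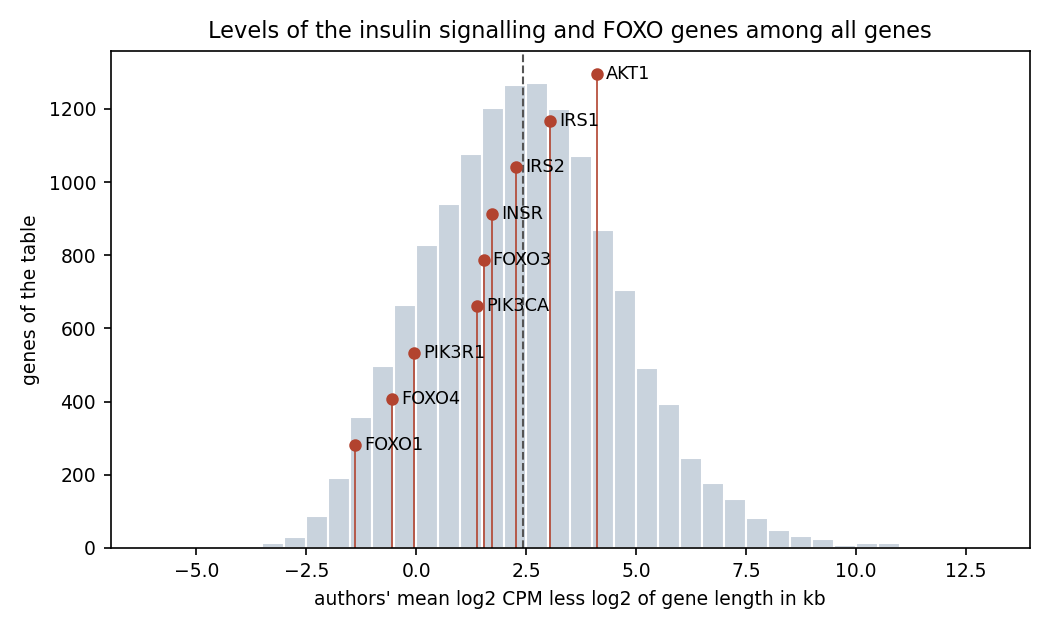
Histogram of the authors' mean log2 CPM less log2 of gene length in kb over all 13957 genes (bars, number of genes), with the 9 genes as red points and lines whose heights only separate the labels. The dashed line is the median of all genes, 2.43, and only AKT1 (4.12) and IRS1 (3.04) lie to its right.

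INSR encodes the insulin receptor. It lies on chromosome 19 at 7112255 to 7294414 (minus strand, GRCh38) and had a level of 5.16 log2 CPM, or 1.72 log2 CPM per kb, at percentile 37.3. The related receptor gene for insulin-like growth factor 1, IGF1R, was at 1.56 log2 CPM per kb. Of the summed linear level of these receptors per kb, INSR made up 52.7%. Without division by length it made up 46.4%, so which of the receptor genes was higher depended on the scale. INSRR, the third gene of the family, was not listed, and neither were the ligand genes INS, IGF1 and IGF2. The receptor for insulin-like growth factor 2, IGF2R, which is not a kinase, was at 4.51 log2 CPM per kb.

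IRS1 and IRS2 encode the main docking proteins of the receptor. IRS1 (chromosome 2, 226731317 to 226799759, minus strand) had a level of 6.36 log2 CPM, or 3.04 log2 CPM per kb, at percentile 61.2. IRS2 (chromosome 13, 109752695 to 109786583, minus strand) had a level of 5.31 log2 CPM, or 2.28 log2 CPM per kb, at percentile 47.1. IRS1 was thus 1.70-fold above IRS2 per kb and made up 63.0% of the level of the family. IRS4 was not listed. IRS1 was the higher of both under each length tried.

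PI3K is present in the table with both kinds of subunit. PIK3CA (chromosome 3, 179148114 to 179240093, plus strand), which encodes the catalytic subunit p110α, had a level of 4.65 log2 CPM, or 1.38 log2 CPM per kb, at percentile 31.6. It was not the leading catalytic gene, as PIK3CB, which encodes p110β, was at 2.44 log2 CPM per kb and made up 53.0% of the summed level per kb. PIK3CA made up 25.4% and PIK3CD, which encodes p110δ, 21.5%. PIK3CG was not listed. This order was the same for each of the 3 length scales plotted for the families. With the merged exons of GENCODE release 44 as length, which sum to 17189 bases for PIK3CA against 9660 in the table, PIK3CA was at 0.55 log2 CPM per kb and made up 17.5%, level with PIK3CD, while PIK3CB made up 65.0%. PIK3R1 (chromosome 5, 68215756 to 68301821, plus strand), which encodes the regulatory subunits p85α, p55α and p50α, had a level of 3.37 log2 CPM, or -0.05 log2 CPM per kb, at percentile 12.6. PIK3R3 was at -0.39 log2 CPM per kb, and PIK3R2 was not listed. With the merged exons of GENCODE release 44, PIK3R1 was below PIK3R3, with 45.4% of their sum instead of 55.9%. Per kb of the table's length, PIK3CA was 2.70-fold above PIK3R1, a step of 1.43 log2. With the longest transcript this step was 0.87 log2, and with the merged exons the levels were 0.55 and -0.66. The sum for regulatory subunits lacks PIK3R2.

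AKT1 (chromosome 14, 104769349 to 104795751, minus strand) encodes the kinase on which the pathway converges. At 7.60 log2 CPM, or 4.12 log2 CPM per kb, it was at percentile 78.5, and it was 2.11-fold above IRS1, the next of the 9 genes. The related kinase gene AKT2 was at 3.52 log2 CPM per kb. With the longest transcript of each gene as its length, AKT1 was at 4.53 and AKT2 above it at 5.12 log2 CPM per kb, so which of these genes was higher depended on the length.

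The FOXO genes were unequal. FOXO3 (chromosome 6, 108559835 to 108684774, plus strand) had a level of 4.47 log2 CPM, or 1.54 log2 CPM per kb, at percentile 34.2. FOXO4 (chromosome X, 71095851 to 71103532, plus strand) had a level of 1.38 log2 CPM, or -0.54 log2 CPM per kb, at percentile 8.15. FOXO1 (chromosome 13, 40555667 to 40666641, minus strand) was the lowest, with 1.18 log2 CPM, or -1.39 log2 CPM per kb, at percentile 2.86. In linear units FOXO1 was at 2.27 CPM and FOXO3 at 22.2 CPM, and the lowest gene of the table was at 0.56 log2 CPM. FOXO3 was 7.61-fold above FOXO1 per kb and made up 54.1% of the summed level of the family. FOXO6, which is not one of the 9 genes, made up 25.9%, FOXO4 12.8% and FOXO1 7.11%. Without division by length the share of FOXO3 was 73.0%, that of FOXO6 10.9% and that of FOXO4 8.55%.

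**Figure D2:**
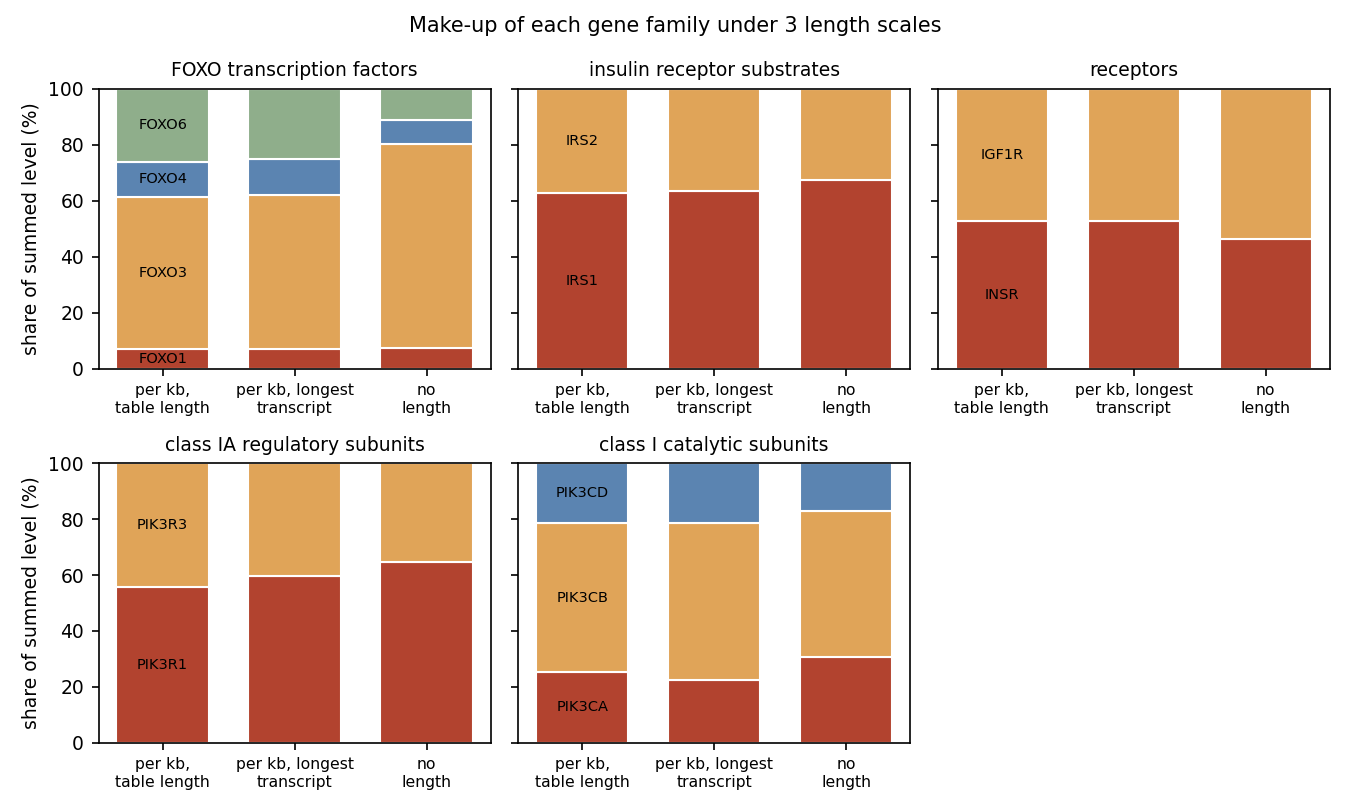
Stacked bars of the share (%) of each gene in the summed linear level of its family, for genes listed in the table, with levels per kb of the table's gene length, per kb of the longest GENCODE transcript, and without division by length; the genes keep the colour order labelled on the left bar of each panel. FOXO3 and IRS1 hold the largest share in all 3 bars of their panels, whereas INSR goes from 52.7% to 46.4% without division by length.

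Some steps in the order of the 9 genes were small. From the highest to the lowest level per kb, the order was AKT1, IRS1, IRS2, INSR, FOXO3, PIK3CA, PIK3R1, FOXO4 and FOXO1. INSR was 1.14-fold above FOXO3, which was 1.11-fold above PIK3CA. Without division by length PIK3CA was above FOXO3, at 4.65 against 4.47 log2 CPM. As no spread between libraries is known, it cannot be said which neighbours in this order differ beyond it. With the longest transcript of each gene as its length, all 9 genes had the same rank. With the merged exons of GENCODE release 44, PIK3R1 fell from -0.05 to -0.66 log2 CPM per kb and came below FOXO4, because its annotated exons sum to 16323 bases there and to 10731 bases in the table. PIK3CA fell further, from 1.38 to 0.55 log2 CPM per kb, and stayed sixth in the order. PIK3R1 has 33 annotated transcripts, the most among the 9 genes, and IRS2 has 1.

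The values of FOXO3 and PIK3CA may also depend on reads that fit more than 1 place, although no reads were examined here. Reads of these libraries were 75 bases long. For each gene, every window of 75 bases within a merged exon of GENCODE release 44 was searched on both strands of GRCh38. For PIK3CA, PIK3R1 and, by less, IRS1 (10019 against 9953 bases) these exons are longer than the gene length in the table. Their windows thus cover more sequence than the deposited values appear to rest on. For AKT1 the exons sum to 10955 bases against 11162 in the table, so part of its sequence may not have been searched. No window of FOXO1, FOXO4, IRS1, INSR or AKT1 occurred a second time. For IRS2 it was 78 of 8008 windows, and for PIK3R1 it was 16 of 14881, none of them coding. Of the 7300 windows of FOXO3, 2615 (35.8%) had an identical copy, and of its 1871 coding windows 1061 (56.7%) did. Nearly all of these copies, 2613, lay on chromosome 17 at 18665922 to 18673050, in the genes FOXO3B and ZNF286B, and 2031 were within exons of FOXO3B. FOXO3B, a gene related to FOXO3, has a row of its own in the table, with 1.65 log2 CPM, or -0.98 log2 CPM per kb, at percentile 5.10.

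One window is shown because a read of this sequence fits both genes equally well. It is the start of the longest run of FOXO3 coding sequence that is also found in an exon of FOXO3B, 437 bases, and lies at chr6:108664416-108664490 on the plus strand and at chr17:18671269-18671343 on the minus strand of GRCh38. The letters are written in the direction of FOXO3 and are the same at both places.
FOXO3 and FOXO3B: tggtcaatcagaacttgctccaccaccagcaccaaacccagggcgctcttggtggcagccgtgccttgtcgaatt

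How such reads were assigned is not given in the sources used here. FOXO3 was at 22.2 CPM and FOXO3B at 3.14 CPM, and their sum was 25.4 CPM. If reads that fit both were left out, both values would be too low, and if they were counted at both, too high. If they were divided, part of either value could belong to the other gene. The second read of a pair can place a read that is not unique by itself, and windows across splice junctions were not searched, so the share of windows is not an estimate of lost counts. In PIK3CA, 1455 of 15561 windows (9.35%) and 108 of 1745 coding windows (6.19%) had a copy. Of these, 1262 windows, among them all 108 coding windows, lay on chromosome 22 at 16572027 to 16578071. No 2 of the 9 genes shared a window with each other, so the levels of FOXO1, FOXO3 and FOXO4, and those of IRS1 and IRS2, were not mixed by identical reads of this length. No other gene of the table overlapped any of the 9 genes, although 5 of the 9 are overlapped by another gene in GENCODE.

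**Figure D3:**
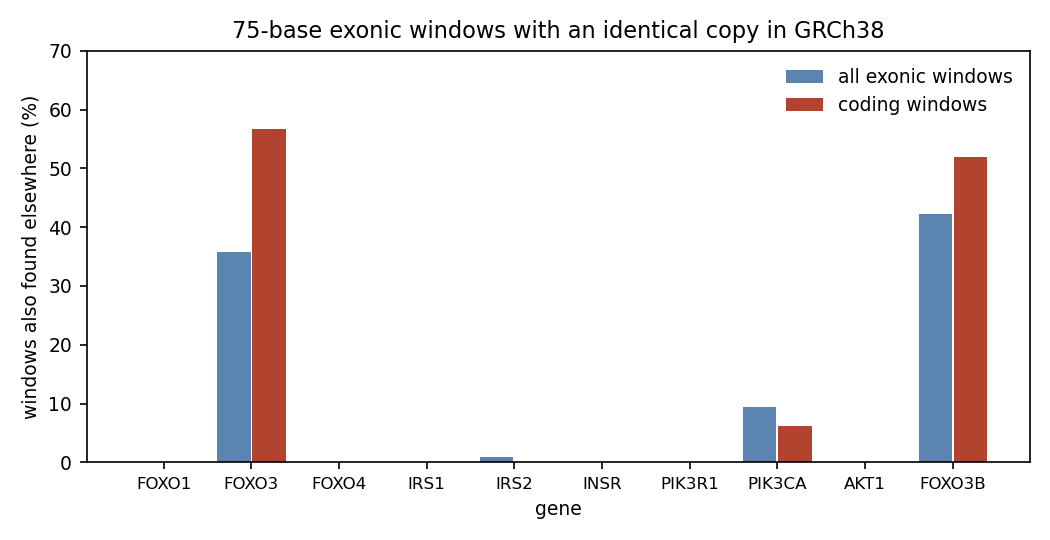
Share (%) of 75-base windows within merged exons (blue, all windows; red, windows within coding sequence) that occur a second time in GRCh38, for the 9 genes and for FOXO3B. FOXO3 stands apart from the other 8 genes with 35.8% of all and 56.7% of coding windows, PIK3CA has 9.35% and 6.19%, the other members are below 1%, and FOXO3B has 42.2% and 51.9%.

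The wider pathway was then examined with 86 genes in 9 roles, of which 71 were in the table. Of these, 38 were above the median of all genes per kb, compared with 2 of the 9 genes described above. By definition, the median splits all genes evenly. Without division by length 5 of the 9 genes were above the median, and the 71 genes were not counted on that scale. The contrast is therefore given for the per-length scale only, and does not show that the 9 genes are low for their pathway. Adaptors ranged from GAB1, at -0.91 log2 CPM per kb, to SHC1, which links receptors to the RAS pathway, at 5.17. Of 7 other PI3K genes listed, 2 were above the median of the table, and the range was from PIK3C2B at -1.40 to PIK3C2A at 2.92. Both ends of this range lie outside the families of regulatory and catalytic subunits described above, to which PIK3CB, PIK3CD and PIK3R3 belong. Of 8 listed genes for phosphatases or their subunits, a group that opposes the signal, 4 were above the median of the table. The highest was PTPN1, which dephosphorylates the insulin receptor, at 5.46, and the lowest was PHLPP1, which dephosphorylates AKT, at 0.61. All 11 genes of the next group, 8 kinases and 3 subunits of mTOR complexes that are not kinases, were listed. The kinases ran from SGK3 at -0.84 to GSK3A, which encodes a kinase that AKT inhibits, at 4.34, and MAPKAP1, a subunit of the mTOR complex that phosphorylates AKT, was at 4.38. The TSC branch ran from TSC1 at 1.08 to EIF4EBP1, which encodes a translation repressor, at 6.22.

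Genes for partners of FOXO factors were compared next. All 15 partners and regulators, FOXO6 included, were in the table, and 11 were above its median. The highest was the 14-3-3 gene YWHAE, at 7.90 log2 CPM per kb, and the lowest was FOXO6, at 0.47. Of 21 FOXO target genes known from many cell types, 16 were listed, and 7 of these were above the median of the table. They ran from SESN3, at -1.85, to TXNIP, at 5.86 log2 CPM per kb. The targets of gluconeogenesis, PCK1 and G6PC1, were not listed. These are levels over both treatments together and hold no measure of FOXO activity.

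**Figure D4:**
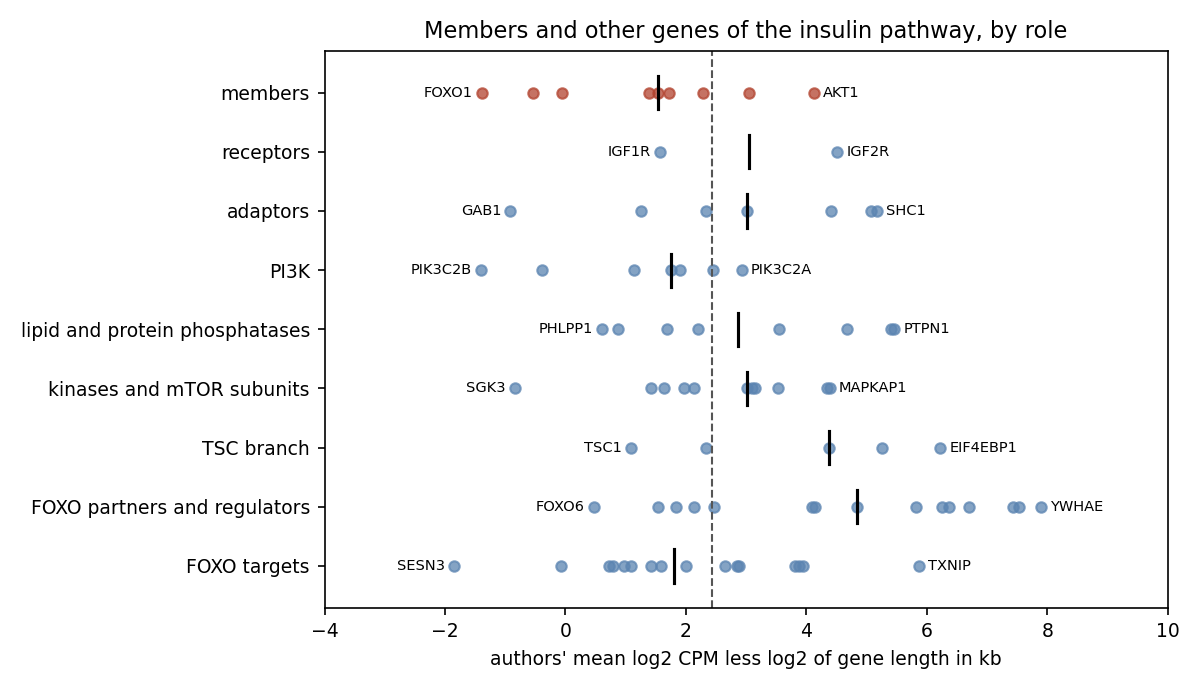
Authors' mean log2 CPM less log2 of gene length in kb for the 9 genes (red, top row) and for the listed genes of each role (blue), with black bars for the median of each row, the dashed line for the median of all genes (2.43), and the lowest and highest gene of each row named. The 9 genes run from -1.39 to 4.12, and the row of FOXO partners reaches 7.90.

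The promoters of the 9 genes were searched for letters that FOXO factors are known to bind, since some genes of this pathway are FOXO targets. RefSeq windows from 250 bases before to 50 bases after each start (GRCh38.p14) were available for all 9 genes, 16 windows in all. The FOXO core motif GTAAACA (or TGTTTAC on the other strand) was in 2 of the 16 windows, those of PIK3CA and FOXO4, and in 3.42% of 35116 windows of all genes. The insulin response core CAAAACA (or TGTTTTG) was in the window of IRS2, and in 4.92% of all windows. These motifs do not overlap each other. The matches are shown with the motif in capitals, each in the direction of its gene, from chr3:179148197-179148226, chrX:71095863-71095892 and chr13:109786605-109786634.
PIK3CA: agttcgttgttTGTTTACacgatgtgagcg
FOXO4: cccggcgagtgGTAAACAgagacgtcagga
IRS2: gagtcacatgtTGTTTTGctcttcttagtt

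The match in PIK3CA began 149 bases before the RefSeq start and that in IRS2 40 bases before it, whereas the match in FOXO4 began 23 bases after the start. The span of PIK3CA in the table begins before its match, so by that annotation the match lies within the gene. A match of letters is not a measured binding site, and no binding was measured here. The levels of these 3 genes per kb, 1.38 for PIK3CA, -0.54 for FOXO4 and 2.28 for IRS2, lay on both sides of the median of the 9 genes.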

How the data were processed

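Stranded RNA-seq libraries of MDA-MB-231 Fluc cells, with cordycepin or DMSO, were made after ribosomal RNA depletion. Per the paper's methods, the authors used GRCh38.p13 as the genome and rsubread for counting, while the submitters' processing notes name TopHat, HTSeq, DESeq and Cufflinks. The authors' deposited table gives a mean expression as log2 CPM and a gene length, and 0 columns of values per sample. Its normalization and filter are not given in the sources used here. Its gene positions and strands were used for the spans given above. Its columns with the authors' own fold changes, F statistics and p-values for cordycepin against DMSO were not used. The planned test of this comparison was therefore not made, and the depth is unknown.

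Here, log2 of the gene length in kb was subtracted from the mean log2 CPM, and percentiles were taken over all 13957 genes. The table's length equalled the merged exon length of GENCODE release 44 for 73.5% of genes and for 5 of the 9 members. Family shares are linear levels over their sum. Named were all members, their families, and the highest and lowest gene of each role; GSK3A, PCK1 and G6PC1 were added after their values were seen. Results that rest on certain other genes are not reported here. The members and lists were chosen with earlier results of these data known. Percentiles and window search were tested on simulated data. Python 3.11.15, numpy 2.4.6, pandas 2.3.3 and matplotlib 3.10.9 were used.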

Additional observations from a re-analysis of the deposited data

How the results depend on the processing

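The percentile of the median of the 9 genes, 34.2 as reported, was 32.3 among protein-coding genes only, 21.7 among genes above the lowest 25% of log2 CPM (which leaves 7 of the 9 genes), 28.9 with the longest transcript as length, and 51.4 without division by length. With the merged exons of GENCODE release 44, an alternative chosen after seeing the data, it was 34.7. Family shares with the longest transcript were 54.9% for FOXO3, 63.4% for IRS1, 52.8% for INSR and 59.6% for PIK3R1. Without division by length they were 73.0% for FOXO3, 67.5% for IRS1, 46.4% for INSR and 64.7% for PIK3R1. With the merged exons of GENCODE release 44 they were 54.7% for FOXO3, 62.8% for IRS1, 52.7% for INSR and 45.4% for PIK3R1. No spread between replicates is known against which to judge these shifts. No paired analysis was possible because the table gives means over libraries only, and for the same reason DESeq2, leaving out a replicate and a filter on counts were not run. The identity between member proteins was not run. What depth limits cannot be given, as the depth is unknown; FOXO1 and FOXO4 lie nearest to the lowest value of the table.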
